A study of Homo sapiens with 4 samples.

Results

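The genes of the plasminogen activator system and of matrix protease inhibition described here are PLAU, PLAUR, PLAT, SERPINE2, TIMP1, TIMP2, TIMP3, HTRA1 and MMP14. They were taken by symbol, and all 9 were found among the 19577 genes of the 4 count tables. They were chosen by gene name with earlier results of these cells known, in which TIMP1 and SERPINE2 stood among the genes that follow the EMT score. Their relation to that score is therefore a description, and their number among the followers supports nothing.

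The cells were MCF10A, an untransformed human breast epithelial line, carrying H2B-GFP (a fluorescent histone). In every dish 10000 cells were seeded as a circular patch on fibronectin and grown for 6 days in medium with EGF, hydrocortisone, cholera toxin, insulin and equine serum, so all groups share the line, the medium and the time. In 2 patches the cells were phototagged at low resolution, in 3 rings of 1000 to 1500 μm, and in the other 2 at high resolution, as the outermost 250 μm, the next 250 μm and the inside. Each patch gave 1 plate of 384 wells of sorted live cells, sequenced by SORT-seq, in which random barcodes (UMIs) tell separate transcripts apart. Rings are not compared, because wells were not assigned to regions here, and each value is for all sorted cells of a patch.

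After the study's filter, 291 and 271 cells remained on low-resolution replicates 1 and 2, and 291 and 293 on high-resolution replicates 1 and 2. These are fewer cells than the paper reports for either experiment, so the set of cells differs from the study's. The median depth was 30520 and 33757 transcripts per cell on the low-resolution plates, and 35742 and 41248 on the high-resolution plates. All 7 epithelial markers were detected on every plate, with a summed mean of 25.7 to 32.2 counts per 10000. KRT5 alone made up 16.9 to 21.6 of this, and TP63 was found in only 2.58% to 4.12% of cells. The sums were 0.0728 to 0.148 for 7 fibroblast markers, 0.186 to 0.255 for 4 endothelial markers and 0.265 to 0.572 for 5 immune markers. The endothelial and immune sums were mostly PECAM1, found in 28.5% to 47.1% of cells, and CD14, found in 36.9% to 59.8%, and COL1A1 was found in 17.3% to 27.6%. PTPRC had 1 to 5 counts and CDH5 0 to 2 counts per plate, and LUM and MS4A1 were at 0 on every plate. By their names, the files of low-resolution replicate 1 came from one flow cell and those of the other 3 plates from another. The plates share the same 384 well barcodes by design.

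As background, the plasminogen activators PLAU (urokinase) and PLAT (tissue-type) are serine proteases that cut plasminogen into plasmin, which degrades fibrin and several matrix proteins. PLAUR, the urokinase receptor, holds PLAU at the cell surface, and SERPINE2 (protease nexin) is a secreted inhibitor of thrombin and of the activators. TIMP1, TIMP2 and TIMP3 block matrix metalloproteinases, of which MMP14 is anchored in the membrane, and HTRA1 is a secreted serine protease that cuts fibronectin and other matrix proteins. Cells that leave an epithelial sheet are known to remodel this pericellular proteolysis, and EMT, the passage from an epithelial to a mesenchymal state, is one setting in which it is studied.

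The promoters of the 3 genes that move together across cells, TIMP1, HTRA1 and SERPINE2, are shown because their co-expression is the main pattern below, and that of PLAUR because it does not share it. The sequences are from RefSeq (build GRCh38.p14), each being the 250 bases before a listed start, 5′ to 3′ on the gene's strand. They lie at chrX:47582186-47582435 (plus strand) for TIMP1, chr10:122461303-122461552 (plus) for HTRA1, chr2:224038641-224038890 and chr2:224031479-224031728 (minus) for the 2 listed starts of SERPINE2, and chr19:43670170-43670419 (minus) for PLAUR. Capitals mark matches to any of the 5 motifs searched on both strands, namely the AP-1 element TGANTCA, the TEAD element GGAATG, the E-box of the ZEB and SNAI factors CACCTG, the GC box of SP1 proteins GGGCGG and the TATA box TATAAA.
TIMP1: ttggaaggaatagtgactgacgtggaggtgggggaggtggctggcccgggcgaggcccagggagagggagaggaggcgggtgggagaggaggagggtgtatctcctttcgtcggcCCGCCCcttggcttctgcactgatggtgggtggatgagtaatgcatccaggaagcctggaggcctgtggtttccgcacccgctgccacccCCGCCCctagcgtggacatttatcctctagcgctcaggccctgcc
HTRA1: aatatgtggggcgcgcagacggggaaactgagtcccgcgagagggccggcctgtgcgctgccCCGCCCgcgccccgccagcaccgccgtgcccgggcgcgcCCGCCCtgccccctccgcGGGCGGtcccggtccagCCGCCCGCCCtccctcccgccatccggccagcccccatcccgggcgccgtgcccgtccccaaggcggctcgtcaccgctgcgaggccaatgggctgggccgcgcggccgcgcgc
SERPINE2, upstream start: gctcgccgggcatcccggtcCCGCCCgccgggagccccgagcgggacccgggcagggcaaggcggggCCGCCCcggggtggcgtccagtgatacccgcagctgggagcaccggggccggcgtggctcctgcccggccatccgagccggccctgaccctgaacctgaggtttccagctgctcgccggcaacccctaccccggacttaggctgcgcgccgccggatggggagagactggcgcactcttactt
SERPINE2, downstream start: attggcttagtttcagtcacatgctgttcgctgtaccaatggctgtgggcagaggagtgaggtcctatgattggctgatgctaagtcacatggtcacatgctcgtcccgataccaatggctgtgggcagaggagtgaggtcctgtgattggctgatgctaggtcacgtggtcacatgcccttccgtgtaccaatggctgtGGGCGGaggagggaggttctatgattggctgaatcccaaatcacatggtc
PLAUR: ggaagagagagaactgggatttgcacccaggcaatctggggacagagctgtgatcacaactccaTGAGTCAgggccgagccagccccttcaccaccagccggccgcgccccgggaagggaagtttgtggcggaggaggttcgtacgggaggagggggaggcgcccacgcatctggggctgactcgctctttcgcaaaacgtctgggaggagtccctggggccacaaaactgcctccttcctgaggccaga

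All capitals in the TIMP1, HTRA1 and SERPINE2 windows are GC boxes, with 2 matches in TIMP1, 5 in HTRA1 (of which 2 overlap each other), 2 at the upstream start of SERPINE2 and 1 at the downstream start. GC boxes were found in 42.6% of the 35116 RefSeq windows of the same length. The 4 windows of these 3 genes held none of the other motifs, which were found in 6.57% (AP-1), 11.9% (TEAD), 17.5% (E-box) and 10.7% (TATA box) of all windows. The capitals in PLAUR are its single match, to AP-1, and no other member window held an exact match to that motif. Only exact matches were counted, so a near match such as tgagtaa in TIMP1 has no capitals. The search therefore does not show that a window lacks AP-1 elements. The matches are letters in a window, not sites at which a factor was measured. Windows were searched for 7 members, and none is shown for PLAT and TIMP2.

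The levels of the 9 genes differed widely between genes and, for most of them, between the 2 experiments. Levels are given as the mean number of counts per 10000 counts of a cell. A UMI stands for 1 captured transcript end, so the levels were not divided by gene length. In the order of low-resolution replicates 1 and 2 and then high-resolution replicates 1 and 2, the level of TIMP1 was 8.86, 6.91, 10.7 and 10.0, that of SERPINE2 3.19, 3.74, 7.11 and 6.61, and that of HTRA1 1.16, 1.31, 2.03 and 1.85. For these 3 genes both high-resolution plates lay above both low-resolution plates. In counts summed per plate, this was so in 28.3% of the 12437 genes tested. Together they made up between 73.4% and 79.3% of the summed level of the 9 genes on each plate, and TIMP1 alone between 41.5% and 50.3%.

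The activators and the receptor were rarer. The level of PLAU was 0.298 and 0.234 on the low-resolution plates and 0.624 and 1.04 on the high-resolution plates, and that of its receptor PLAUR was 0.455, 0.651, 0.697 and 1.08 in the same order. PLAT was lower still, at 0.0545, 0.0303, 0.161 and 0.0898. In each of these genes both high-resolution plates lay above both low-resolution plates, as in 28.3% of all genes tested. The gap between the nearest plates of PLAUR (0.651 and 0.697) was small.

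TIMP2 and TIMP3 differed little between plates. The level of TIMP2 was 2.51, 2.57, 2.56 and 2.42, with a mean of 2.52 ± 0.0696 (SD, n = 4 plates), and that of TIMP3 was 1.05, 0.850, 1.12 and 0.996, with a mean of 1.01 ± 0.116. In both genes the plates of the 2 experiments overlapped. MMP14, the target of TIMP2 at the cell surface, was close to the limit of detection, with 13, 4, 13 and 13 counts in all and a UMI in 1.48% to 4.47% of cells. By mean over plates the order was TIMP1 (9.11 ± 1.65), SERPINE2 (5.17 ± 1.98), TIMP2, HTRA1 (1.59 ± 0.418), TIMP3, PLAUR (0.721 ± 0.261), PLAU (0.549 ± 0.368), PLAT (0.0840 ± 0.0571) and MMP14 (0.0105 ± 0.00378). The ranges over plates of SERPINE2 and TIMP1 overlapped, as did those of PLAU and PLAUR and those of PLAUR and TIMP3. Within each plate TIMP1 was above SERPINE2 and PLAUR above PLAU, whereas TIMP3 was above PLAUR on all plates but high-resolution replicate 2.

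**Figure D1:**
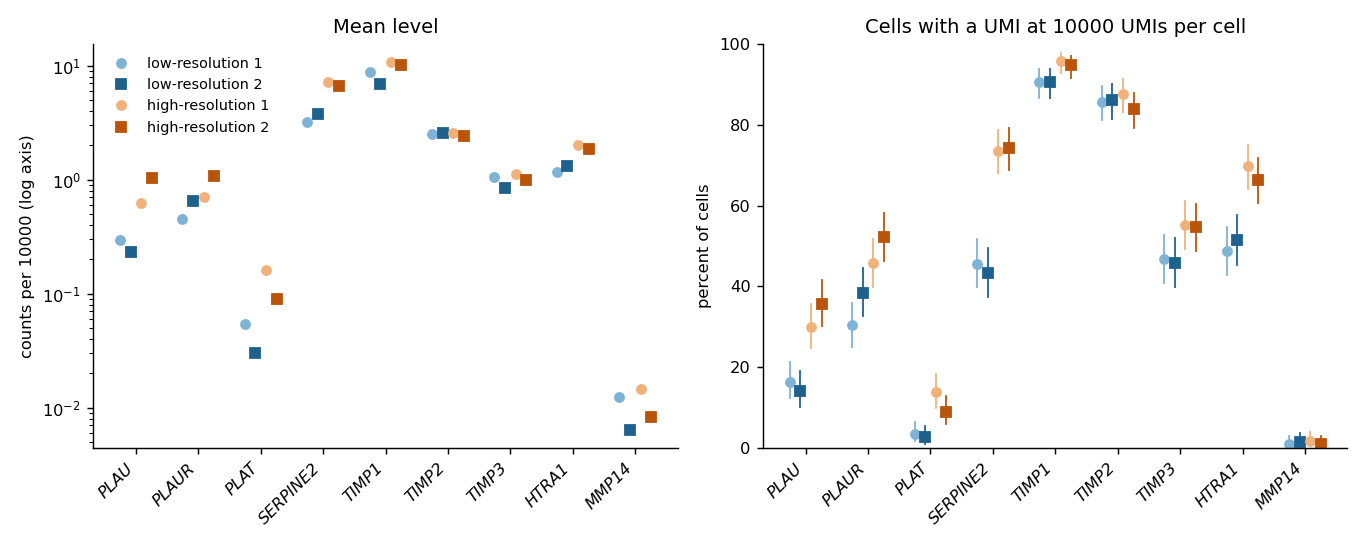
Level of each gene on the 4 plates. Left, the mean in counts per 10000 on a log axis; right, the percent of cells with a UMI after every cell was thinned to 10000 UMIs, with exact binomial 95% intervals (counting error only). TIMP1, SERPINE2 and HTRA1 are higher on both high-resolution plates, as are PLAU, PLAUR and PLAT, while TIMP2 sits between 2.42 and 2.57 on all 4 plates.

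How widely a gene was spread over cells was compared at equal depth, after thinning each cell to 10000 UMIs, which left out 4 and 3 cells of the low-resolution and 7 and 2 of the high-resolution plates. Most cells held TIMP1 (90.6% and 90.7%, then 95.8% and 94.8%) and TIMP2 (83.8% to 87.7%). SERPINE2 was found in 45.6% and 43.3% of low-resolution cells and in 73.6% and 74.2% of high-resolution cells, and HTRA1 in 48.8% and 51.5% against 69.7% and 66.3%. The exact binomial 95% intervals of the experiments did not meet for SERPINE2 (39.8% to 51.6% and 37.3% to 49.4% against 68.1% to 78.6% and 68.8% to 79.2%). Those of HTRA1 and PLAU did not meet either. How many of all genes have such a gap was not counted, so nothing is read from it. A UMI of PLAU was found in 16.4% and 14.2% of low-resolution cells and in 29.9% and 35.7% of high-resolution cells. Before thinning these shares were 27.5% and 29.9% against 50.5% and 60.8%. PLAUR was found in 30.3% and 38.4% against 45.8% and 52.2% of thinned cells, and PLAT in 3.48% and 2.61% against 13.7% and 8.93%. The intervals cover counting error only.

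SERPINE2 and TIMP1 were concentrated in some of the cells, and TIMP2 was not. The tenth of cells highest in SERPINE2 held 70.4% and 71.9% of its summed level on the low-resolution plates and 46.3% and 49.6% on the high-resolution plates. For TIMP1 this share was 47.7%, 42.8%, 36.1% and 37.4%, and for TIMP2 it lay between 23.6% and 29.0%. At 10000 UMIs the Fano factor (variance over mean, which is 1 for counting error alone) was 16.2, 19.2, 14.01 and 15.7 for SERPINE2, against a median of 1.52 to 1.76 over genes of like mean. For TIMP1 it was 11.8 to 21.7 against 1.72 to 2.10, and for TIMP2 1.52 to 1.95 against 1.34 to 1.46. PLAU had a Fano factor of 2.16 to 5.05 against 1.10 to 1.18 in genes of like level, and PLAUR one of 1.26 to 2.50 against 1.13 to 1.18. The median cell held 4 of the 9 genes on the low-resolution plates and 5 on the high-resolution plates at equal depth, and no cell held none of them.

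The EMT score set each gene against the epithelial or mesenchymal state of a cell. It is the GSVA score of 103 mesenchymal genes minus that of 64 epithelial genes found in the files, none of them a member here, and is related to each gene by Spearman's rho across the cells of a plate, with no p-value, since the cells share a patch and a library. TIMP1 had a rho of 0.78, 0.72, 0.75 and 0.78 in the plate order above, SERPINE2 of 0.58, 0.69, 0.78 and 0.84, and HTRA1 of 0.68, 0.65, 0.75 and 0.74. On all plates these values were of the size of those of FN1 (fibronectin, 0.74 to 0.77) and VIM (vimentin, 0.47 to 0.72), which are themselves in the mesenchymal list, and opposite to those of CDH1 (E-cadherin, -0.76 to -0.71) and EPCAM (-0.80 to -0.64). A gene was said to follow the score where rho reached 0.3 on all 4 plates, among genes detected in 20% or more of the cells on each plate. Of the 7 members found in that share of cells, these 3 followed it upward, and 2.55% of all 8032 such genes did. The choice of members used these values, so nothing is read from that count.

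Among the members found in 20% of cells, TIMP2 was nearest to the limit from below, with a rho of 0.25, 0.18, 0.33 and 0.34. SERPINE2, whose lowest value was 0.58, was the nearest inside it. PLAT had values of 0.22, 0.24, 0.41 and 0.39, so it missed the limit on both low-resolution plates. On some plates it was also found in fewer than 20% of cells. PLAU lay near 0 on one plate and above it on the others (0.01, 0.15, 0.23 and 0.17), and TIMP3 was at 0.18, 0.16, -0.01 and 0.07. MMP14, in too few cells to be read, had a mean of 0.0032. PLAUR was the only member below 0 on all 4 plates (-0.05, -0.10, -0.06 and -0.17). Both PLAU and PLAUR had a positive rho with the number of transcripts of a cell (mean 0.26 and 0.18), and after thinning to equal depth their mean rho with the score was 0.13 and -0.03. For TIMP2 and TIMP3 it was 0.18 and 0.03, against 0.28 and 0.10 before. At equal depth the 3 followers stayed at a mean of 0.70 (TIMP1), 0.68 (SERPINE2) and 0.60 (HTRA1). All 3 were lower in cells with a larger mitochondrial share (mean rho -0.29, -0.33 and -0.30), whose part in these values was not tested. Without the mitochondrial limit the same 3 genes followed the score.

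**Figure D2:**
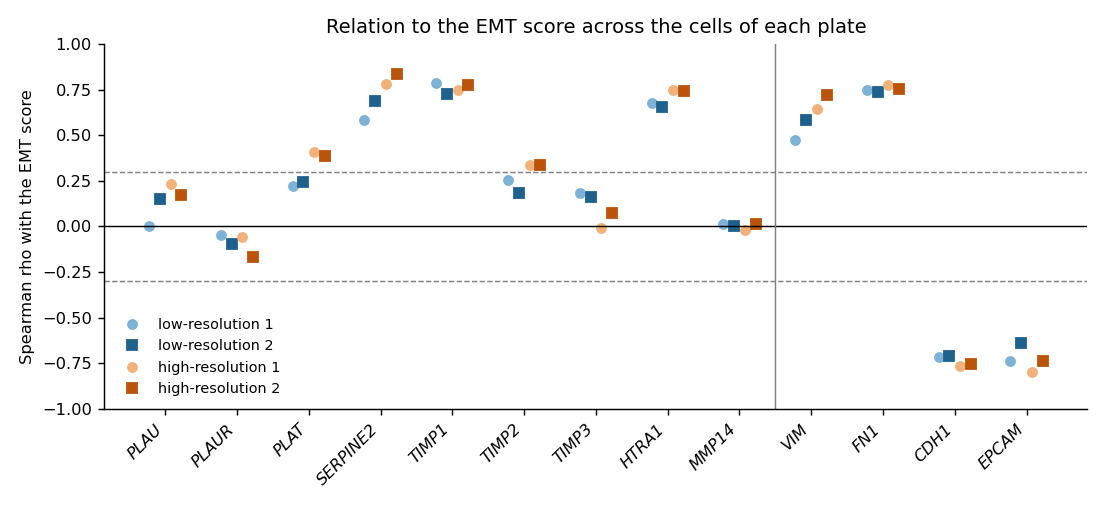
Spearman rho of each gene with the EMT score across the cells of each plate (y axis), for the 9 genes and, right of the line, 4 marker genes of the score; dashed lines mark 0.3 and -0.3. SERPINE2, TIMP1 and HTRA1 lie between 0.58 and 0.84, beside VIM and FN1, and PLAUR lies below 0 on all 4 plates.

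The members were also set against single marker genes. CDH1, EPCAM, VIM and FN1 are themselves in the lists of the score, so likeness to it is partly built in. TIMP1 had a mean rho over plates of 0.75 with FN1, 0.48 with VIM, -0.64 with CDH1 and -0.67 with EPCAM, and HTRA1 had 0.71, 0.48, -0.59 and -0.62. SERPINE2 had 0.65 with FN1 and the highest value of the members with VIM, 0.58. TIMP2 differed between markers, at 0.40 with FN1 and -0.39 with EPCAM but 0.17 with VIM. PLAUR was positive with both epithelial markers on every plate (CDH1 0.10 to 0.28 and EPCAM 0.08 to 0.21). It was also above 0 with VIM on every plate (0.003 to 0.059), and below 0 with FN1 (-0.12 to -0.02). At equal depth its mean with CDH1 was 0.04 (-0.01 to 0.15) and that with EPCAM 0.10 (0.03 to 0.19). PLAT had a mean of -0.24 with CDH1 and 0.27 with VIM, and of -0.08 and 0.11 at equal depth.

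The size of the change along the score was read from 3 equal groups of the cells of each plate, ordered by EMT score, with 90 to 98 cells in each. SERPINE2 rose from 0.252 counts per 10000 in the low-score cells to 8.52 in the high-score cells on low-resolution replicate 1 and from 0.208 to 10.4 on replicate 2, and from 0.609 to 13.999 and from 0.579 to 14.5 on the high-resolution plates. These are ratios of 33.8, 49.8, 23.0 and 25.1. The ratio was 10.0, 6.02, 5.97 and 6.63 for TIMP1 and 9.13, 6.93, 7.18 and 6.81 for HTRA1. For comparison, VIM had ratios of 25.1 to 61.8, and CDH1 of 0.0247 to 0.0580. The ratio of TIMP2 was only 1.26 to 1.59. The groups are ranges of a continuous score, with 8 to 27 cells within 0.05 of a cut.

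For SERPINE2, TIMP1 and HTRA1 the ratio between the experiments was largest in the middle-score cells. There SERPINE2 was at 0.800 and 0.685 on the low-resolution plates and at 6.74 and 4.81 on the high-resolution plates, and HTRA1 was at 0.615 and 0.660 against 2.10 and 1.82. TIMP1 was at 5.07 and 4.12 against 11.9 and 9.13. The median score was -0.0276 and -0.207 on the low-resolution plates and 0.312 and 0.151 on the high-resolution plates. Scores were computed within each experiment, so the middle-score cells of the 2 experiments do not have the same state, and these values are not compared by a test. In the high-score cells TIMP1 was at 19.5 and 14.3 against 17.2 and 18.3, with the experiments overlapping, while HTRA1 was at 2.59 and 2.85 against 3.50 and 3.28.

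PLAU and PLAUR had other courses. PLAU was highest in the middle-score cells of both high-resolution plates (0.829 and 1.47, against 0.309 and 0.652 in low-score and 0.733 and 0.989 in high-score cells). On the low-resolution plates it was highest in the high-score cells, at 0.415 and 0.364. The share of cells with PLAU at equal depth did not have this order on every plate. It was 17.7%, 13.5% and 17.9% in low-, middle- and high-score cells on low-resolution replicate 1. On replicate 2 it was 4.44%, 16.9% and 21.3%. On high-resolution replicate 2 it was 39.2% in middle-score and 40.2% in high-score cells. In each of the 3 groups the level of PLAU was higher on both high-resolution plates than on both low-resolution plates. The groups do not hold cells of the same state in the 2 experiments. How many of all genes had this order in each group was not counted, so nothing is read from it. PLAUR was lowest in the high-score cells of every plate, with ratios of high-score to low-score cells of 0.798, 0.637, 0.633 and 0.478. The share of cells with PLAUR at equal depth did not have this order on every plate: it was 29.2% in low-score and 32.6% in high-score cells on low-resolution replicate 1, 37.8% and 37.1% on replicate 2, and 61.9% and 43.3% on high-resolution replicate 2. On high-resolution replicate 1 it was higher in high-score than in low-score cells (47.4%). PLAT had ratios of 5.39, 7.22, 10.4 and 25.7, which rest on 6, 4, 13 and 5 counts in the low-score cells. At equal depth a UMI of PLAT was found in 3.33% of low-score and 3.37% of high-score cells on low-resolution replicate 2.

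**Figure D3:**
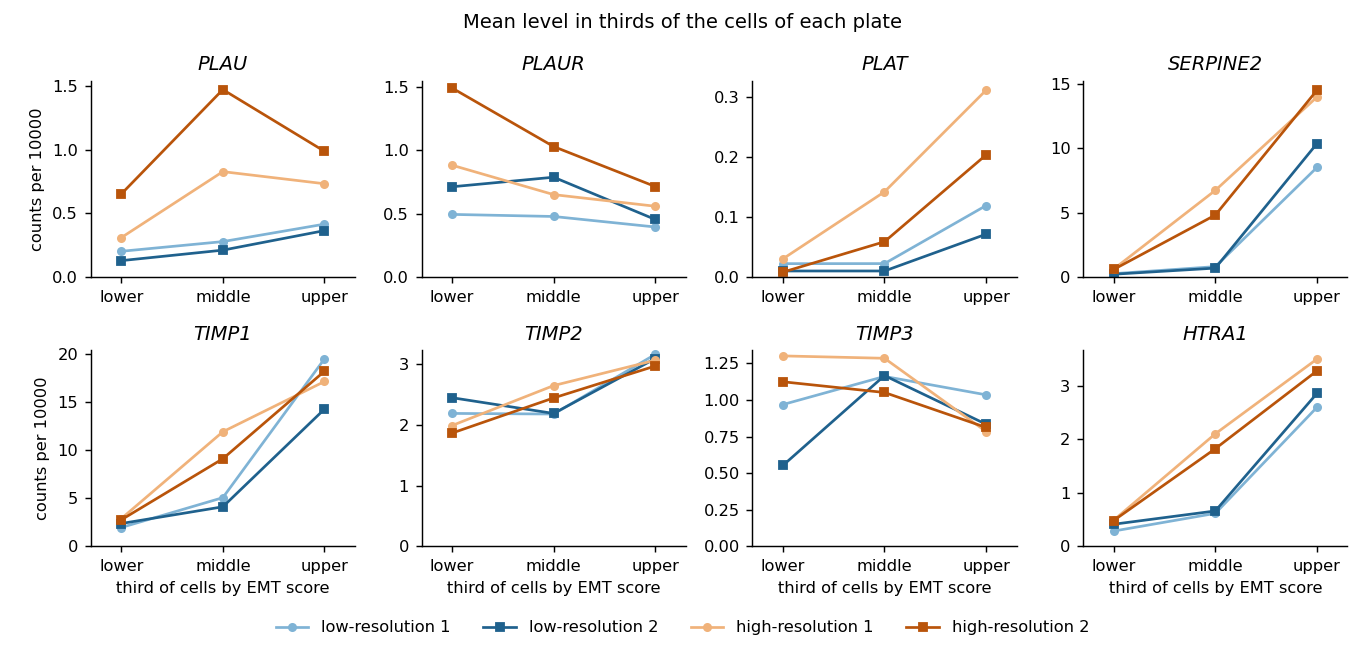
Mean level in counts per 10000 (y axis, from 0) in the low-, middle- and high-score cells of each plate (3 equal groups by EMT score, marked lower, middle and upper), for 8 of the 9 genes (MMP14, with 4 to 13 counts per plate, is left out). SERPINE2, TIMP1 and HTRA1 climb on all plates, PLAUR is lowest in the high-score cells, and TIMP2 changes by a ratio of 1.26 to 1.59.

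Across the 36 pairs of members, co-expression in single cells was highest among 3 genes. TIMP1 with HTRA1 had a rho of 0.70, 0.65, 0.73 and 0.71 on the 4 plates, SERPINE2 with HTRA1 of 0.57, 0.64, 0.70 and 0.76, and SERPINE2 with TIMP1 of 0.54, 0.59, 0.66 and 0.73. The next pairs were TIMP1 with TIMP2 (mean 0.38), TIMP2 with HTRA1 (0.36) and PLAT with SERPINE2 (0.32). These 6 pairs had a mean of at least 0.3, and 3 of them (those among TIMP1, HTRA1 and SERPINE2) at equal depth. The share of all gene pairs at this limit was not counted. Members were also chosen with earlier results known, so nothing is read from the count of 6. The median of the 36 pair means was 0.072, and the median of all pairs of 8032 genes was 0.018 to 0.022 per plate. At equal depth a UMI of SERPINE2 was found in 91 of 140 cells with HTRA1 on low-resolution replicate 1 and in 63.0% of such cells on replicate 2, against 27.2% and 22.3% of the cells without HTRA1. For the high-resolution replicates the shares were 85.4% and 87.0% with HTRA1 and 46.5% and 49.0% without.

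With the EMT score held fixed (partial rank correlation), the mean rho of TIMP1 with HTRA1 was 0.35, that of SERPINE2 with HTRA1 0.32 and that of SERPINE2 with TIMP1 0.20. TIMP2 with TIMP1 went from 0.38 to 0.27 and TIMP2 with HTRA1 from 0.36 to 0.24, while SERPINE2 with TIMP2 went from 0.21 to 0.01. For PLAT with SERPINE2, 0.14 remained. PLAU with PLAUR changed little: it was at 0.27, 0.23, 0.14 and 0.27 on the 4 plates, with a mean of 0.23, and had a mean of 0.25 with the score held fixed. This pair was weak and sparse, and at equal depth its mean was 0.12. At that depth PLAUR was found in 40.4% and 60.5% of low-resolution cells with PLAU and in 28.3% and 34.8% of those without, and in 47.1% and 56.7% against 45.2% and 49.7% of high-resolution cells. The binomial 95% intervals of the 2 shares met on every plate but low-resolution replicate 2 (43.4% to 76.0% against 28.6% to 41.3%). The means of PLAU or PLAUR with the inhibitors SERPINE2, TIMP1, TIMP2 and TIMP3 lay between -0.08 and 0.17. The lowest mean of all pairs was that of PLAUR with TIMP2, at -0.08.

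**Figure D4:**
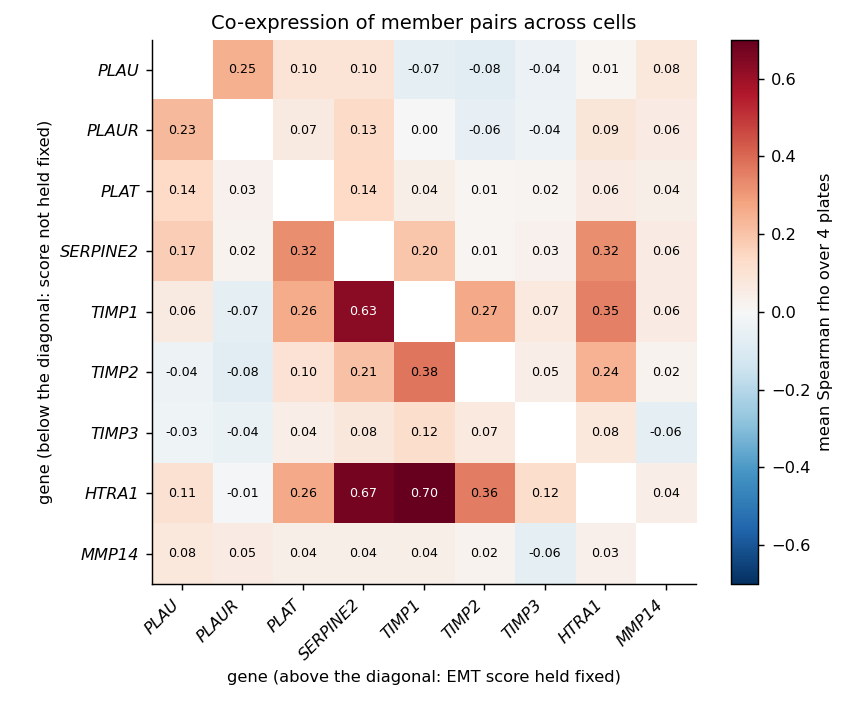
Mean Spearman rho over the 4 plates for each pair of genes across cells, below the diagonal as measured and above it with the EMT score held fixed (colour scale from -0.7 to 0.7). TIMP1, HTRA1 and SERPINE2 reach 0.63 to 0.70 below and 0.20 to 0.35 above the diagonal, while PLAU with PLAUR is at 0.23 and 0.25.

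The genes most like each member, outside the 9 and among those found in 20% of cells, were named by mean rho over the 4 plates. For SERPINE2 they were EMP3 (0.73), the integrin subunit ITGA5 (0.66) and the aldose reductase AKR1B1 (0.66). For TIMP1 they were FN1 (0.75), AKR1B1 (0.68) and the integrin subunit ITGB1 (0.66), and the same 3 led for HTRA1 at 0.71, 0.63 and 0.66. TIMP2 was closest to the matrix protein FBLN1 (0.45), the tetraspanin CD63 (0.44) and FN1 (0.40). Among the genes closest to PLAU were the chromatin protein HMGA1 (0.39) and the adaptor SH3KBP1 (0.34), and among those closest to PLAUR were the laminin chain LAMA3 (0.27) and S100A2 (0.25). PLAT was closest to EMP3 (0.33), the ectonucleotidase NT5E (0.32) and the galectin LGALS1 (0.32). TIMP3 reached no more than 0.21 (the Wnt antagonist SFRP1, then PXDN at 0.20 and ARL6IP5 at 0.18). MMP14 had values of no more than 0.12 (UNK and DCAF4 among them), which in so sparse a gene is no finding. EMP3, FN1, FBLN1 and SFRP1 are in the mesenchymal list of the score.

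TIMP2 was the member lowest in cells with high cell cycle scores. Its rho with the S score was -0.23, -0.21, -0.19 and -0.22, and that with the G2/M score was -0.19, -0.27, -0.24 and -0.24, the lowest means of the 9 genes (-0.21 and -0.23). PLAU had the highest, with a mean of 0.18 with the S score and 0.20 with the G2/M score, above 0 on all plates. PLAU also had a positive rho with depth (above), whose part in this value was not tested. With both scores held fixed, the mean rho with the EMT score was 0.33 for TIMP2 and 0.11 for PLAU, against 0.28 and 0.14 before.

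High- and low-resolution plates were compared over all genes with edgeR's quasi-likelihood test on the counts summed over the cells of each plate, in CPM (counts scaled to a common library size). On the high-resolution plates, 6 of the 9 genes were higher (adjusted p under 0.05, Benjamini-Hochberg over 12437 genes), and none was lower. They were the 3 genes of the activator system proper (PLAU, PLAUR and PLAT) and SERPINE2, TIMP1 and HTRA1. Of all genes tested, 6.26% were called higher and 12.4% called in either direction. In these 6 genes both high-resolution plates lay above both low-resolution plates, as they did in 28.3% of all genes. The members were chosen with earlier results of these plates known, and the counts are given beside the shares without a reading.

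PLAU had 35.2 and 28.7 CPM on the low-resolution plates and 71.9 and 123 CPM on the high-resolution plates. The log2 fold change, high minus low, was 1.61 ± 0.21 (SE; adjusted p = 0.000664, n = 2 plates per group, edgeR). Both high-resolution plates stood well above the low-resolution plates, and the call held without any single plate (log2 fold change 1.18 to 1.95).

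PLAT rose from 4.28 and 3.22 to 17.4 and 8.34 CPM, a log2 fold change of 1.76 ± 0.33 (adjusted p = 0.00572, edgeR). SERPINE2 rose from 325 and 392 to 683 and 663 CPM, by 0.91 ± 0.12 on the log2 scale (adjusted p = 0.000598, edgeR), and HTRA1 from 111 and 127 to 195 and 182 CPM, by 0.66 ± 0.12 (adjusted p = 0.00371, edgeR). These calls also held without each plate in turn, but PLAT was at 1.16 without high-resolution replicate 1 and at 2.21 without high-resolution replicate 2. Each such fit sets 1 plate against 2, so that the lone plate is assumed to vary like those of the other group.

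The calls of TIMP1 and PLAUR depended on single plates. TIMP1 went from 765 and 653 to 971 and 942 CPM, a log2 fold change of 0.43 ± 0.11 (adjusted p = 0.0252, edgeR). The call was lost without low-resolution replicate 2 (0.33, adjusted p = 0.129) and without high-resolution replicate 1 (0.42, adjusted p = 0.0605). PLAUR went from 48.0 and 66.8 to 70.9 and 118 CPM, at 0.72 ± 0.21 (adjusted p = 0.0418, edgeR), so that high-resolution replicate 1 was close to low-resolution replicate 2. Its call was lost without low-resolution replicate 1 (0.51, adjusted p = 0.224), without high-resolution replicate 2 (0.31, adjusted p = 0.308), without the mitochondrial limit (adjusted p = 0.0636) and with DESeq2 (adjusted p = 0.309).

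The 3 genes that did not pass were TIMP2 (log2 fold change 0.01 ± 0.11, adjusted p = 0.949), TIMP3 (0.22 ± 0.13, adjusted p = 0.295) and MMP14 (0.33 ± 0.55, adjusted p = 0.749), all by edgeR. TIMP2 had 232 and 248 against 247 and 238 CPM. In MMP14, at 0.403 to 1.27 CPM, the direction turned when low-resolution replicate 2 was left out (-0.25), and the value was 1.37 without low-resolution replicate 1. The direction of TIMP2 turned without low-resolution replicate 1 (-0.03) and without high-resolution replicate 1 (-0.01).

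The marker genes of the EMT score moved with the same contrast. CDH1 fell by 0.68 on the log2 scale (adjusted p = 0.00321, edgeR), while FN1 rose by 0.77 (adjusted p = 0.00127) and VIM by 0.94 (adjusted p = 0.00117). EPCAM did not pass (-0.11, adjusted p = 0.566). Of the markers of other cell types, CD14 fell by 0.96 (adjusted p = 0.0070, edgeR) and KDR by 1.03 (adjusted p = 0.0431), and PECAM1 rose by 0.55 (adjusted p = 0.0447). Their part in these results was not tested. Each group is also its own experiment, with its own patches and depth. Whether a gene was higher in each cell, sorted cells came from other regions or the experiments differed otherwise cannot be told apart here. Leaving out low-resolution replicate 1 leaves plates of 1 flow cell. The log2 fold changes were then 1.77 (PLAU), 0.51 (PLAUR), 1.98 (PLAT), 0.78 (SERPINE2), 0.56 (TIMP1) and 0.57 (HTRA1). The part of the flow cell was not tested.

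**Figure D5:**
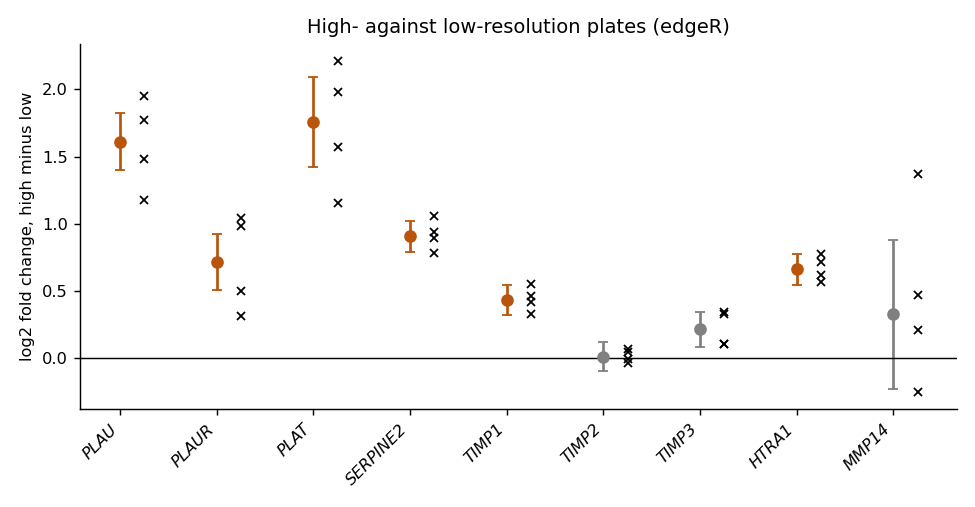
Log2 fold change of each gene, high- minus low-resolution plates (edgeR, 2 plates per group), with its standard error; coloured points passed an adjusted p of 0.05 and grey points did not. Crosses give the value with each plate left out in turn. PLAU (1.61) and PLAT (1.76) have the largest changes, and TIMP2 sits at 0.01.

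The other genes of the pathway were taken from lists. Of 22 further genes of the plasminogen system, 15 were tested, and 4 rose and 1 fell between the experiments. Over all genes tested, 6.26% were called higher and 12.4% in either direction. The median log2 fold change of the 15 was 0.19, against -0.02 over all genes and 0.66 over the 9 members. Members and lists were chosen with earlier results known, so nothing is read from these counts or medians. Those that rose were the plasminogen-binding annexin ANXA2 (0.40 ± 0.10) and its partner S100A10 (0.40 ± 0.11), the urokinase inhibitor SERPINB2 (0.54 ± 0.16) and the protease inhibitor TFPI2 (1.87 ± 0.56, at 0.389 to 2.85 CPM). SERPINA5, the protein C inhibitor, fell by 1.14 ± 0.17 on the log2 scale, from 25.3 and 33.0 to 14.2 and 12.4 CPM. Of 30 metalloproteases and partners 16 were tested, and MMP2 (1.26 ± 0.23, 3.51 and 3.83 against 9.27 and 8.34 CPM) and ADAM19 (1.40 ± 0.24) rose and none fell. Of 9 other inhibitors and HTRA genes, 4 were tested and none passed.

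Across cells, 9 of the 22 plasminogen genes were found in 20% of cells. Of these, ANXA2 (mean rho 0.42), S100A10 (0.44) and ENO1, a plasminogen receptor as well as a glycolytic enzyme (0.47), followed the EMT score upward. Of all 8032 genes found in that share of cells, 2.55% did. The receptor LRP1, which clears activator and inhibitor complexes, was just outside (0.29 to 0.36). SERPINB2 was below 0 on all plates (-0.41 to -0.04), the direction opposite to its rise between experiments, and so was SERPINA5 (-0.16 to -0.10). LRPAP1 (mean 0.03), IGF2R (0.24) and SERPINB8 (-0.09) did not reach the limit. None of the 7 metalloproteases and partners found in 20% of cells followed the score, with ADAM9 highest by mean (0.30, from 0.12 to 0.43) and MMP28 lowest (mean -0.18). The others were ADAM10 (0.11), ADAM12 (0.17), ADAM15 (0.02), ADAM17 (0.13) and BSG (-0.11). MMP2, found in fewer cells, had a rho of 0.32 to 0.44, but it is itself in the mesenchymal list of the score.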

How the data were processed

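Single MCF10A cells of 4 plates (2 per experiment) were analysed. The files the authors deposited hold expected counts per gene and well: distinct UMIs, corrected for UMIs drawn repeatedly, unscaled and with spike-in rows. The submitters' processing notes name STAR 2.7.3a, Seurat 4 and hg38. The correction for 4096 UMI sequences was undone wherever cells were thinned, with no value further than 4.55e-13 from a whole number.

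Following the study, cells needed 2000 to 9000 features and a mitochondrial share below 40%, and doublets were not called. Spike-in rows (0.833% to 1.38% of transcripts) were left out. Counts were scaled to 10000 per cell and taken as the natural log after adding 1. GSVA was implemented for this work (Gaussian kernel, 1 run per experiment), and the S and G2/M genes came from Seurat 5.3.0. Sums per plate, rounded, were tested with edgeR 4.0.16 (TMM, filterByExpr, quasi-likelihood test), with standard errors from the fold change and F, and with DESeq2 1.42.0 as an alternative. The summed counts were 9877460 and 10077700 on the low-resolution and 11414800 and 13520900 on the high-resolution plates. Both steps were tested on simulated data.

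The plates are described as biological replicates by the study, with 2 per group, each group from its own experiment. The p-values set the difference between groups against variation between plates within groups, estimated with information shared over genes. They hold no variation between repeats of an experiment. All 9 members are named, along with genes among the 3 most like each by mean rho, the listed pathway genes found in 20% of cells or past the threshold, and CDH1, EPCAM, VIM and FN1. Members and lists were chosen with earlier results of these data known. Some genes that these rules name are not reported here. Alternatives were equal depth, other mitochondrial settings, another score, the cell cycle or EMT score held fixed, other limits, other tests and scaling, no filter, the replicate block and each plate left out.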

Additional observations from a re-analysis of the deposited data

Results flagged for a closer look

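PLAUR with SERPINE2 was singled out because the pair lay on opposite sides of 0 in the 2 experiments. Its rho across cells was 0.09 and 0.08 on the low-resolution plates and -0.004 and -0.077 on the high-resolution plates, so that the mean, high minus low, differed by -0.127. The difference was not tested and all 4 values are weak. With the EMT score held fixed the mean of the pair over the 4 plates was 0.13, and at equal depth it was 0.04. No outlying plate could be sought with 2 plates per group.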

How the results depend on the processing

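The number of genes called between high- and low-resolution plates was 1547, and 982 to 1172 with 1 plate left out, the fewest without low-resolution replicate 1 (982) and without high-resolution replicate 2 (987). It was 1070 with DESeq2, 2146 with no filter on low counts (19290 genes tested), 1466 without the mitochondrial limit, 1526 without mitochondrial rows, 1572 with other size factors and 2023 with the replicate block. The replicate numbers do not pair the plates (the deviations of same-numbered plates correlated at -0.0241 across genes), and the block changed the call of no member. Of the 89 values of the members under these alternatives, 83 kept direction and side of the threshold, or neither value was called, and 6 were no longer called, 4 of PLAUR and 2 of TIMP1; the cause was not tested. The 3 followers of the EMT score remained 3 under all 11 alternatives. The median co-expression of pairs, 0.072, was 0.048 at equal depth and 0.055 to 0.095 otherwise. At equal depth the mean rho with the EMT score of PLAT moved from 0.31 to 0.17, and that of PLAUR from -0.09 to -0.03. Depth limits what can be said of MMP14 and PLAT.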
